A study of Mus musculus with 36 samples.

Results

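Chemokine ligands were examined as 38 genes of the 21705 listed in an RNA-seq table of mouse bladder tumour models. They were taken by symbol alone: every Ccl gene with a number and at most 1 trailing letter, every Cxcl gene with a number, and Cx3cl1, Xcl1, Pf4 and Ppbp. No measured value entered the choice. The 36 libraries were 9 UPPL primary tumours, 11 BBN primary tumours, tumours grown from a line (4 from UPPL1541, 2 from BBN963 and 4 from MB49), and 6 cultures (UPPL1541, BBN963, MB49, KT1044, KT1970 and KT1975, with 1 library each). The values of the last 3 stand in the table under KAT1044, KAT1970 and KAT1975 and were taken to be the cultures labelled KT. UPPL mice carried Upk3a-CreERT2, floxed p53, the Rosa26 LSL-Luc luciferase reporter and a further allele not reported here, and were untreated; the Upk3a promoter, active in urothelium, drives an inducible Cre. The UPPL1541 line-derived tumours are labelled with that genotype, and the culture of the same line is labelled Ctrl. BBN primary tumours came from mice of genotype Ctrl given the bladder carcinogen N-butyl-N-(4-hydroxybutyl)nitrosamine. Line-derived tumours of BBN963 and MB49, and all cultures, are labelled Ctrl and untreated. What KT stands for, the animals' ages and the host of the line-derived tumours are not given in the labels. Each line-derived group represents 1 line, and nothing in the labels says whether tumours of a group came from separate animals, so the p-values measure the spread between these samples. MB49 is a widely used mouse bladder cancer line. A primary tumour named UPPL1541 and another named BBN963 carry the names of the lines.

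Chemokines are small secreted or membrane-anchored proteins that steer leukocytes through G protein-coupled receptors. Ligands that bind Cxcr2 attract neutrophils, ligands of Ccr2 attract monocytes, and the interferon-inducible ligands of Cxcr3 attract activated T cells and natural killer cells. In the bladder, urothelial and tumour cells, stroma and leukocytes can each be a source, so a whole tumour gives the sum of several cell types. In such bulk samples fewer cells of a type and less RNA per cell cannot be told apart.

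Values are the deposited normalized signal, in which the upper quartile of each library's non-zero genes is set to about 1000. They are compared between samples for 1 gene, not between genes unless stated per kilobase. Recovered depth was 9294000 to 17927000 reads per library. In 5 libraries the most frequent low value stood for 10 reads or more (19 in BBN963 line-derived tumour 1, 11 in MB49 line-derived tumour 1, 15 in primary tumour BBN962, 17 in primary tumour UPPL1595 and 14 in primary tumour UPPL1597), so low values there are coarse. The summed signal of 6 epithelial genes was 249134 to 338425 in UPPL1541 tumours, 374684 to 399629 in BBN963 tumours and 16153 to 26237 in MB49 tumours. It was 7594 in the MB49 culture, where Epcam was listed at 0. Ccl19, Ccl26 and Ccl27b reached a signal of 10 in no library. Ccl21c and the Ccl27a and Ccl27b pair have near-identical copies in the mouse genome, so their reads may be shared among copies and their values are uncertain.

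Of the 38 genes, 13 lie on chromosome 5 and 12 on chromosome 11 in the RefSeq annotation. The chromosome 5 genes include the ligands with the highest signal in the cultures described next. Promoters of Cxcl1, Cxcl2, Cxcl3 and Ppbp are shown, and also that of Cxcl10, which reached at most 145 in the cultures. RefSeq promoters (250 bases before to 50 after the start, build GRCm38.p6, matched by symbol) were held for 26 of the 38 genes. Cxcl5, on chromosome 5 as well, was not among the 26, so its promoter was not examined. Each is printed 5′ to 3′, and capitals mark the NF-kB consensus on either strand and, in Cxcl10, also the interferon-stimulated response element; no match of one motif overlapped a match of another. The Cxcl1 promoter lay at chr5:90890995-90891294 on the plus strand, Cxcl2 at chr5:90903649-90903948 on the plus strand, Cxcl3 at chr5:90785851-90786150 on the plus strand, Ppbp at chr5:90768268-90768567 on the plus strand and Cxcl10 at chr5:92348840-92349139 on the minus strand.
Cxcl1: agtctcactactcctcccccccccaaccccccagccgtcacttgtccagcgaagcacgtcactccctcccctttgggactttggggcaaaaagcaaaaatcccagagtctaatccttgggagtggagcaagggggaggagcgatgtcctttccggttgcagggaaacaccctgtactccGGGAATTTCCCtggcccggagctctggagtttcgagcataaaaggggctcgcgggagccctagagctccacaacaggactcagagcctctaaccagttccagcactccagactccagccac
Cxcl2: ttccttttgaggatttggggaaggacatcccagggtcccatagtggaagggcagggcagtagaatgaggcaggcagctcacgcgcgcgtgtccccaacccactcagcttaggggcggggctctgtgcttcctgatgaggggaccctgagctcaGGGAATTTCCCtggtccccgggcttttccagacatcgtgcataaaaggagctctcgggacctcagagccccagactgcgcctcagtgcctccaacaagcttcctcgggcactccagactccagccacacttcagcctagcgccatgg
Cxcl3: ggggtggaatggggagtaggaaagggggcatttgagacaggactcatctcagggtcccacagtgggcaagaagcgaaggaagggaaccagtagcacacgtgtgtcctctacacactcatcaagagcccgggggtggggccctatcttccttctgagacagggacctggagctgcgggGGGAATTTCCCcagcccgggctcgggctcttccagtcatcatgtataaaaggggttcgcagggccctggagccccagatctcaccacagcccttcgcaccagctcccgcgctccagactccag
Ppbp: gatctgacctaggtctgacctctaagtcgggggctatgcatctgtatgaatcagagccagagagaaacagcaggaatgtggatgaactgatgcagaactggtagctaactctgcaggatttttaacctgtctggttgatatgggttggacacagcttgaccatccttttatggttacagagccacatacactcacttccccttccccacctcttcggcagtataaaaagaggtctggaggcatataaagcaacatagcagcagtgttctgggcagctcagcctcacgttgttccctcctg
Cxcl10: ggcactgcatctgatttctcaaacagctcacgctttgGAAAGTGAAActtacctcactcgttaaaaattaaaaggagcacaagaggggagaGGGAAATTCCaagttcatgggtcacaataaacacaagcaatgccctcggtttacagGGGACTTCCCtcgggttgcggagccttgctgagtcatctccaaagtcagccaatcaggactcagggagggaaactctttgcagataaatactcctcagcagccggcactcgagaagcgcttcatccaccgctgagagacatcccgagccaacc
The 11 capitals of Cxcl1, Cxcl2 and Cxcl3 are a pair of overlapping matches that spell the same letters in all 3 genes, starting 71, 97 and 73 bases before the start. Cxcl10 held matches starting 159 and 103 bases before its start, and an interferon-stimulated response element (GAAANNGAAA) starting 213 bases before it. These letters did not occur in the Ppbp window. The 26 genes have 32 promoters in the table, since some have several. The NF-kB consensus was found in 7 of the 32 (21.9%), against 4.53% of 32544 promoters of the same length. The interferon-stimulated response element was found in 3 of the 32 (9.38%), against 3.45% of the 32544. The GAS element (TTCNNNGAA), also searched on both strands, was found in 2 of the 32 (6.25%), against 8.33% of the 32544. The promoter of Cxcl9, another ligand of Cxcr3 on chromosome 5, was among those searched and held no match of any of these motifs. These matches are descriptions of letters and not of binding.

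Cultured cells made transcripts of 21 of the 38 ligands at a signal of 10 or more in at least 1 of the 6 cultures, and of 17 at 100 or more. The share of all genes at these levels was not counted. At the level of 10, 18 ligands were present in the UPPL1541 culture, 18 in the BBN963 culture, 11 in the MB49 culture, 17 in KT1044, 15 in KT1970 and 14 in KT1975. The 5 that reached 10 in all 6 cultures were Ccl2, Ccl25, Cxcl5, Cx3cl1 and Cxcl16, and Cx3cl1 and Cxcl16 alone reached 100 in all 6. Most leukocyte transcripts were at or near 0 in the cultures: Ptprc, Laptm5 and Coro1a summed to 5.60 in UPPL1541, 29.2 in BBN963, 1.93 in MB49 and 0 in the 3 KT cultures. The macrophage genes C1qa, C1qb, C1qc and Msr1 were listed at 0 in all 6. Of the same list, Csf1r stood at 360 in UPPL1541 and 272 in KT1044, and Cd68 at 124 to 247 in the 6 cultures. All 7 genes of the macrophage and monocyte list summed to 485 in UPPL1541, 248 in BBN963, 172 in MB49 and 205 to 486 in the KT cultures. The 5 fibroblast genes summed to 26.1 in UPPL1541, 90.0 in BBN963, 1004 in MB49 and 780 to 3974 in the KT cultures. Whether tumour or stromal cells made these transcripts was not tested. The ligands of a culture are therefore not assigned to tumour cells alone. Among dendritic cell genes Flt3 stood at 740.1 in the MB49 culture and at 4.67 or less in the other 5. With 1 library per culture, the differences among cultures have no replicate check and no test.

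The neutrophil-attracting CXC ligands, which signal through Cxcr2, set the lines apart. Cxcl5, made by epithelial cells in many tissues, stood at 53925 in the UPPL1541 culture, 56181 in the BBN963 culture and 11.6 in the MB49 culture, and at 117, 229 and 706 in KT1044, KT1970 and KT1975. Ppbp, the precursor of the neutrophil-attracting peptide NAP-2 and best known from platelets, stood at 18134 in the UPPL1541 culture and 38912 in the BBN963 culture, was listed at 0 in the MB49 culture, and stood at 4819, 721 and 10709 in the 3 KT cultures. UPPL1541 and BBN963 were thus high in both genes, MB49 was low in both, and the KT cultures lay between them in both. The platelet genes Gp9, Treml1, Gp1bb and Itga2b summed to 32.1 in the UPPL1541 culture and 43.5 in the BBN963 culture, and Pf4, the other platelet chemokine, was at 0 and 3.65 there. Cxcl3, a close relative of Cxcl1 and Cxcl2, stood at 2106 in the UPPL1541 culture, 32635 in the BBN963 culture and 3625 in the MB49 culture, against 8.88, 18.7 and 27.6 in the KT cultures. Cxcl2 was also highest in BBN963, with 2308 in the UPPL1541 culture, 8450.1 in the BBN963 culture and 1462 in the MB49 culture, against 3.33, 119.9 and 288 in the KT cultures. Cxcl1, by contrast, was highest in MB49 at 1578, stood at 448 in BBN963 and at 312, 248 and 502 in the KT cultures, and was at 3.73 in UPPL1541. Cxcl15, or lungkine, a neutrophil attractant of lung, was low, between 0 in MB49 and 111 in UPPL1541.

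Divided by transcript length (longest protein-coding GENCODE transcript), Ppbp led in the BBN963 culture with 35930.2 signal units per kilobase and Cxcl5 followed with 35671, or 28.6% and 28.4% of all ligand signal per kilobase. In the UPPL1541 culture the order of this pair was turned round: Cxcl5 held 59.2% and Ppbp 28.9%. Ppbp led in all 3 KT cultures, with 65.5% in KT1044, 32.5% in KT1970 and 84.1% in KT1975. In the MB49 culture Cxcl3 led with 49.3% and Cxcl1 followed with 22.9%. The ligand that took the largest share of the repertoire was therefore a Cxcr2 ligand in each of the 6 cultures.

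Monocyte attractants were uneven. Ccl2, the main Ccr2 ligand, stood at 179 in the UPPL1541 culture, 10739.7 in the BBN963 culture and 671 in the MB49 culture, and at 326, 23.1 and 40.001 in KT1044, KT1970 and KT1975. Ccl7, a second monocyte attractant of the same gene cluster, was at 0.934 in the UPPL1541 culture, 231 in the BBN963 culture and 43.4 in the MB49 culture, and at 139, 31.9 and 11.6 in the KT cultures. BBN963 was highest in both. Ccl12 was listed at 0 in all 6 cultures. Among Ccr1 ligands, Ccl9 reached 627 in UPPL1541 and lay between 4.82 and 63.1 in the other 5 cultures, and Ccl5, which recruits T cells, was at 177 in UPPL1541, 105 in BBN963 and 68.8 in KT1044. Ccl3 and Ccl4, macrophage inflammatory proteins typical of activated leukocytes, stayed under 10 in every culture.

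The 2 ligands anchored in the membrane, Cxcl16 (ligand of Cxcr6) and Cx3cl1 (fractalkine, ligand of Cx3cr1), were those at 100 or more in every culture. Cxcl16 stood at 5221 in the UPPL1541 culture, 6674 in the BBN963 culture and 335 in the MB49 culture, and at 1805, 1356 and 1087 in the KT cultures. Cx3cl1 stood at 849.7 in the UPPL1541 culture, 474 in the BBN963 culture and 126 in the MB49 culture, and at 505, 327 and 147 in the KT cultures. MB49 had the lowest value of both. Ccl20, the epithelial ligand of Ccr6, was at 194 in the UPPL1541 culture, 201 in the BBN963 culture and 58.8 in the MB49 culture and listed at 0 in all 3 KT cultures. Cxcl12, the Cxcr4 ligand usually made by stroma, was at 368 in UPPL1541 and at or under 41.4 in the others. Ccl25, best known from thymus and small intestine, spanned 39.97 to 187, and Cxcl14, a homeostatic epithelial chemokine, was highest in KT1044 at 177. Of the Cxcr3 ligands, Cxcl10 peaked at 145 in UPPL1541, Cxcl9 was at or under 0.964 and Cxcl11 at 0. The 4 other members that reached 10 were Ccl6, Ccl8, Ccl27a and Cxcl17, with top values of 65.5, 44.4, 62.7 and 48.6. In all, 17 members stayed under 10 in every culture, and 10 of these were listed at 0 in all 6 (Ccl1, Ccl12, Ccl19, Ccl21c, Ccl22, Ccl24, Ccl26, Cxcl11, Cxcl13 and Xcl1).

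**Figure D1:**
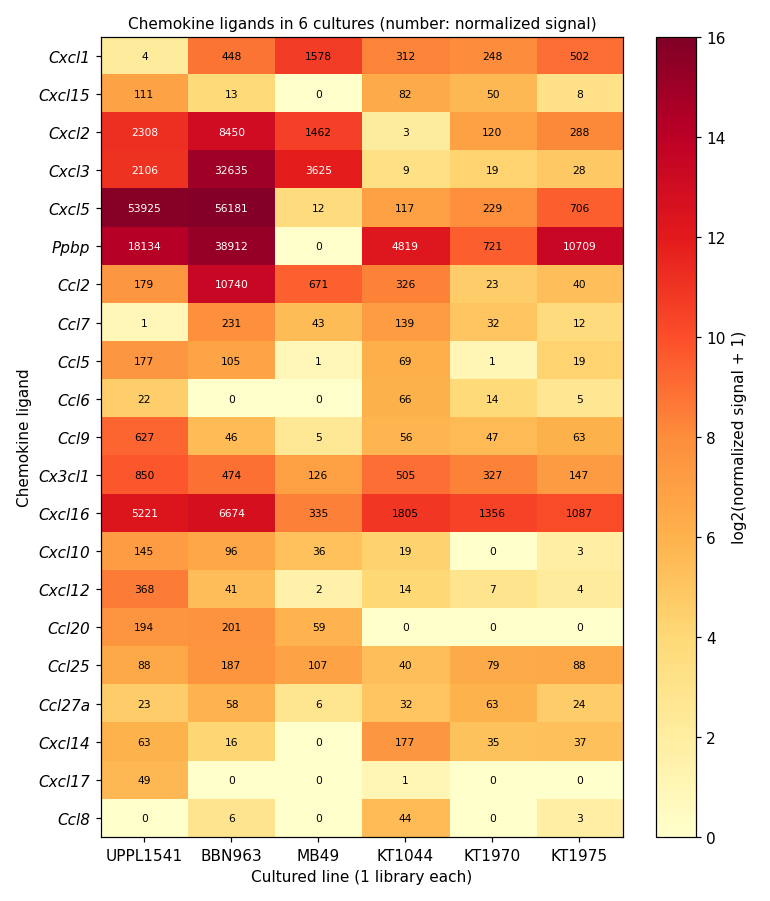
Normalized signal (numbers; colour: log2 of signal + 1) of the 21 chemokine ligands that reached 10 in at least 1 of 6 cultures, with cultures in columns and 1 library each. Cxcl5 is at 53925 in UPPL1541 and 56181 in BBN963 and at 11.6 in MB49, while Cxcl16 and Cx3cl1 exceed 100 in every column.

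Tumours grown from UPPL1541, BBN963 and MB49 were compared with the cultures of the same lines in a model with line and state, to ask which ligands a growing tumour adds. Of 35 ligands tested, 19 rose in the tumours and 3 fell. Over all genes tested 20.1% rose and 8.99% fell, and the median log2 difference, tumours minus cultures, was 3.43 for the ligands and 0.13 for all genes. The call threshold throughout was a Benjamini-Hochberg adjusted p of 0.05 over all genes tested, from limma on log2(signal + 1).

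The ligands that fell in tumours were Ccl20, Cxcl2 and Cxcl3, all made by the cultured cells. Cxcl3 stood at 529, 936, 396 and 236 in the 4 UPPL1541 tumours, 603 and 1037 in the 2 BBN963 tumours and 2017, 2629.6, 1457 and 4945 in the 4 MB49 tumours, against 2106 in the UPPL1541 culture, 32635 in the BBN963 culture and 3625 in the MB49 culture. UPPL1541 and BBN963 tumours all lay below their culture, and 1 MB49 tumour lay above its culture. The log2 difference was -2.54 ± 0.66 (SE), adjusted p = 0.012; without the BBN963 culture the adjusted p was 0.0754. Ccl20 stood at 21.5, 16.9, 18.6 and 25.0 in the 4 UPPL1541 tumours, 0 and 9.80 in the 2 BBN963 tumours and 0, 0, 0 and 4.66 in the 4 MB49 tumours, against 194 in the UPPL1541 culture, 201 in the BBN963 culture and 58.8 in the MB49 culture, so every tumour was below its culture. Its difference was -4.74 ± 0.85 (SE), adjusted p = 0.00118. Cxcl2 was lower in tumours (log2 difference -2.65 ± 0.90 SE, adjusted p = 0.0424), and this call was lost under edgeR (adjusted p = 0.0975) and without the BBN963 culture (0.276), the UPPL1541 culture (0.0647) or any 1 of 8 tumours (UPPL1541 tumours 1, 3 and 4, both BBN963 tumours and MB49 tumours 1, 2 and 3; at most 0.0754). Cxcl5 stood at 2673, 3687, 2692 and 1756 in the 4 UPPL1541 tumours, 728 and 480.4 in the 2 BBN963 tumours and 189, 3.37, 3.20 and 34.97 in the 4 MB49 tumours, against 53925 in the UPPL1541 culture, 56181 in the BBN963 culture and 11.6 in the MB49 culture: all UPPL1541 and BBN963 tumours were below their cultures, the MB49 tumours lay on both sides of theirs, and the common difference of -3.27 ± 1.20 did not pass (adjusted p = 0.0572). Ppbp was likewise lower than in culture in UPPL1541 and BBN963 tumours and above a culture at 0 in MB49 tumours, with 642, 984, 1617 and 915 in the 4 UPPL1541 tumours, 1704 and 2424 in the 2 BBN963 tumours and 9.37, 12.3, 6.40 and 54.8 in the 4 MB49 tumours, against 18134 in the UPPL1541 culture, 38912 in the BBN963 culture and 0 in the MB49 culture (difference -1.34 ± 1.18, adjusted p = 0.419). When each line and state had a mean of its own, the adjusted p was 0.0115 for Cxcl5 and 0.033 for Ppbp; in that fit each culture is a group of 1 library, so the spread comes from the tumours alone and the cultures are assumed to vary like them.

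Of the 19 ligands that rose in tumours, 14 stayed under 10 in the cultures of all 3 lines. These 14 passed the filter of 10 in at least 3 libraries through tumours alone, the group in which they were higher. The filter therefore favoured calls in that direction. Cxcl9, an interferon gamma-induced ligand of Cxcr3, stood at 253, 36.5, 5607 and 100.03 in the 4 UPPL1541 tumours, 5716 and 2087 in the 2 BBN963 tumours and 6812, 5814, 4773 and 3960.4 in the 4 MB49 tumours, against values at or under 0.964 in the 3 cultures. Ccl8, grouped here with the Ccr4 and Ccr8 ligands, stood at 135, 84.7, 924 and 313 in the 4 UPPL1541 tumours, 2675 and 2044 in the 2 BBN963 tumours and 4162, 1611.7, 1275 and 1625 in the 4 MB49 tumours, against at most 6.08 in the cultures. Its log2 difference was 9.11 ± 0.69 (SE), adjusted p = 6.10e-07. Every tumour lay above every culture for both genes. Ccl6, a myeloid CC chemokine, stood at 1059.7, 3203, 523 and 584 in the 4 UPPL1541 tumours, 296 and 977 in the 2 BBN963 tumours and 2195, 1793, 1099 and 2013 in the 4 MB49 tumours, against 22.4 in the UPPL1541 culture, 0 in the BBN963 culture and 0 in the MB49 culture, a difference of 8.38 ± 0.80 (SE), adjusted p = 6.00e-06. Ccl3 (log2 difference 6.94 ± 0.70 SE, adjusted p = 1.06e-05) and Ccl4 (log2 difference 5.65 ± 0.81 SE, adjusted p = 0.000211) rose as well. Ccl12, Ccl17, Ccl22, Ccl24, Ccl21c, Cxcl11, Cxcl13 and Xcl1 passed the test with all 3 cultures listed at 0, so no fold is given. Ccl22, which attracts regulatory T cells through Ccr4, was present in all 10 tumours, at 106, 44.3, 85.7 and 91.7 in the 4 UPPL1541 tumours, 76.1 and 116 in the 2 BBN963 tumours and 118, 73.0, 51.2 and 53.6 in the 4 MB49 tumours. The other risers were Ccl7, Ccl9, Ccl11, Cxcl10, Cxcl12 and Pf4. Ccl2 and Cxcl16 did not pass, with differences of -0.31 ± 0.61 and -0.23 ± 0.55. Ccl2 stood at 394, 84.7, 251 and 111 in the 4 UPPL1541 tumours, 1250.0 and 1849 in the 2 BBN963 tumours and 2701, 1494, 1505 and 2213 in the 4 MB49 tumours, beside 179 in the UPPL1541 culture, 10739.7 in the BBN963 culture and 671 in the MB49 culture, so it was lower in BBN963 tumours and higher in MB49 tumours than in the culture of the line, and the UPPL1541 tumours lay on both sides of it.

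Beside these ligands, leukocyte and stromal transcripts differed between tumours and cultures. The 3 pan-leukocyte genes summed to 2433 to 4265 in UPPL1541 tumours, 2118 to 2699 in BBN963 tumours and 6346 to 8248 in MB49 tumours, against at most 29.2 in the cultures, and all 3 of 3 rose. All 5 fibroblast genes and all 7 macrophage and monocyte genes tested rose as well. The part of these cells in the ligand differences was not tested. Of the 22 calls, 12 held under every alternative, and Xcl1 under every one except the filter of 50, where it was not tested; Ccl9, Ccl17, Cxcl10, Cxcl11, Cxcl12, Cxcl13 and Pf4 were lost under at least 1, as were Cxcl2 and Cxcl3. Ccl9, Cxcl10, Cxcl11, Cxcl12 and Pf4 missed the threshold without the MB49 culture (adjusted p = 0.127, 0.203, 0.0691, 0.144 and 0.0502), Cxcl10 without the BBN963 culture (0.124), and Cxcl13 and Ccl17 without the UPPL1541 culture (0.127 and 0.176). Ccl17 was also lost without the MB49 culture or any 1 of 7 tumours (at most 0.0847). Quantile normalization gave 17 ligands higher and 6 lower in tumours; over all genes 45.4% of calls were then higher, against 69.1% with the deposited scaling.

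**Figure D2:**
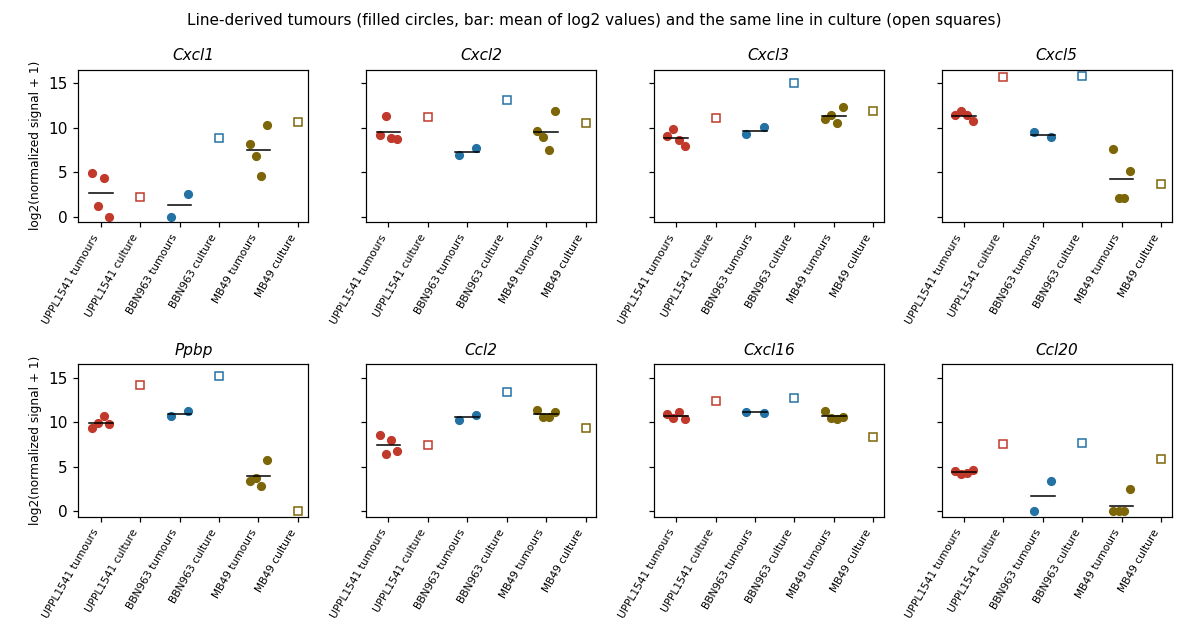
Log2 of normalized signal + 1 for 8 ligands made by cultured cells, in tumours of each line (filled circles, 1 per tumour; bar: mean of the log2 values) and in the culture of that line (open squares, 1 library). Cxcl5 and Ppbp lie lower in tumours than in culture for UPPL1541 and BBN963, and Cxcl16 stays within 1315 to 2426 in all 10 tumours.

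**Figure D3:**
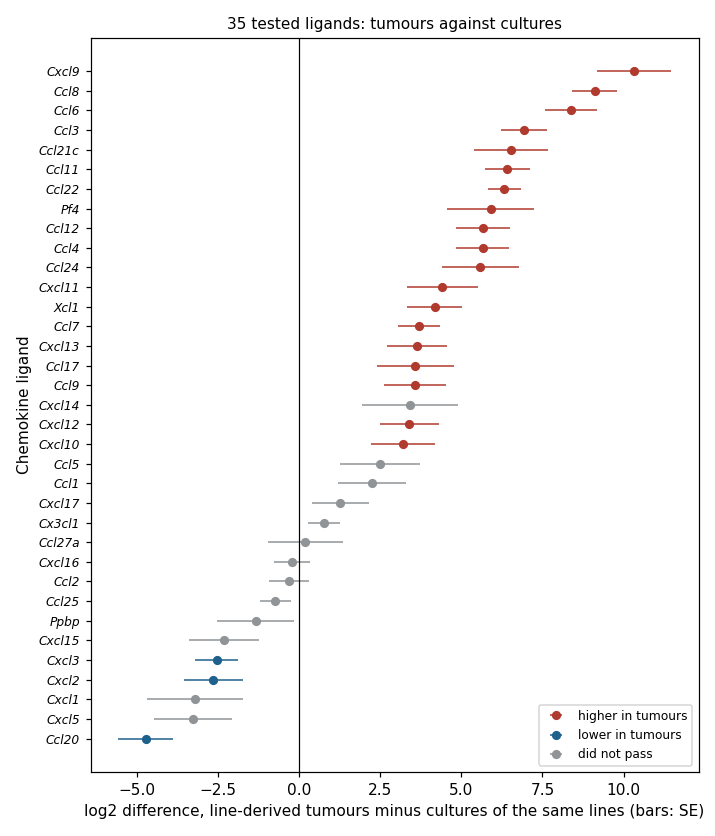
Difference in log2(signal + 1), line-derived tumours minus cultures of the same 3 lines, with its standard error, for the 35 ligands tested; colour gives the call. The 19 ligands higher in tumours end with Cxcl9 at 10.33, and Ccl20 at -4.74 is the lowest; for ligands listed at 0 in all cultures the size depends on the pseudocount.

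Tumours of the 3 lines were compared in pairs. In UPPL1541 against MB49 tumours, 7 of 35 ligands were higher (20%) and 12 lower (34.3%), beside 27.3% and 22.6% over all genes. In UPPL1541 against BBN963 tumours, 5 were higher (14.3%) and 9 lower (25.7%), beside 21.4% and 7.37% over all genes. In BBN963 against MB49 tumours, 4 were higher (11.4%) and 8 lower (22.9%), beside 15.8% and 26.1% over all genes. The ligand share of higher calls was thus below that of all genes in each comparison. The share of lower calls was above that of all genes for UPPL1541 against either line, and below it for BBN963 against MB49. The 3 comparisons share tumours and are not independent. The median log2 difference of the ligands was -0.87 for UPPL1541 minus MB49, 0.56 for UPPL1541 minus BBN963 and -0.61 for BBN963 minus MB49, beside 0.05, 0.32 and -0.24 for all genes.

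Ppbp and Cxcl5 marked off MB49. Ppbp, given above, was higher in every UPPL1541 tumour and both BBN963 tumours than in any MB49 tumour, for UPPL1541 (log2 difference 5.99 ± 0.55 SE, adjusted p = 5.79e-06) and for BBN963 (log2 difference 7.04 ± 0.68 SE, adjusted p = 1.17e-05). Cxcl5 was higher than in MB49 in UPPL1541 (log2 difference 7.12 ± 1.01 SE, adjusted p = 0.000152) and in BBN963 (log2 difference 4.98 ± 1.23 SE, adjusted p = 0.00735), again with no overlap; the BBN963 difference missed the threshold without BBN963 tumour 1 (adjusted p = 0.0574). Cxcl1 and Cxcl3 ran the other way. Cxcl1 stood at 29.9, 1.30, 18.6 and 0 in the 4 UPPL1541 tumours, 0 and 4.90 in the 2 BBN963 tumours and 289, 113, 22.4 and 1200.5 in the 4 MB49 tumours, lower than MB49 in UPPL1541 (log2 difference -4.84 ± 1.38 SE, adjusted p = 0.0126) with overlapping groups, and in BBN963 (log2 difference -6.17 ± 1.68 SE, adjusted p = 0.0123) without overlap. The BBN963 call for Cxcl1 was lost without BBN963 tumour 1, where Cxcl1 was listed at 0 (adjusted p = 0.114). Cxcl3 was lower than in MB49 tumours in UPPL1541 (log2 difference -2.42 ± 0.44 SE, adjusted p = 0.000834) and in BBN963 (log2 difference -1.65 ± 0.54 SE, adjusted p = 0.0284), without overlap in either pair; the second was lost without BBN963 tumour 1 (adjusted p = 0.204) or MB49 tumour 2 or 4 (0.0539 and 0.0606). Cxcl2 did not pass in any of the 3 comparisons. Its values were 579, 2462, 452 and 411 in the 4 UPPL1541 tumours, 119 and 201 in the 2 BBN963 tumours and 789.8, 484, 183 and 3733 in the 4 MB49 tumours, with 1 high tumour in UPPL1541 and 1 in MB49. Of 5 neutrophil genes 2 were higher in UPPL1541 than in MB49 tumours, S100a8 (log2 difference 3.00 ± 0.66 SE, adjusted p = 0.00286) and Cxcr2 (log2 difference 0.89 ± 0.33 SE, adjusted p = 0.0443), and 0 lower. In BBN963 against MB49 tumours, where Ppbp and Cxcl5 were higher as well, 0 of the 5 were higher and 3 were lower: Csf3r (log2 difference -2.44 ± 0.55 SE, adjusted p = 0.00429), Cxcr2 (log2 difference -1.77 ± 0.41 SE, adjusted p = 0.00483) and Retnlg (log2 difference -5.73 ± 1.75 SE, adjusted p = 0.0217).

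Monocyte attractants were low in UPPL1541 tumours. Ccl2, given above, was lower there than in MB49 (log2 difference -3.45 ± 0.43 SE, adjusted p = 5.93e-05) and than in BBN963 (log2 difference -3.11 ± 0.53 SE, adjusted p = 0.00176), and no UPPL1541 tumour reached the lowest tumour of either line. Ccl7 stood at 105, 20.9, 140.3 and 92.9 in the 4 UPPL1541 tumours, 511 and 739 in the 2 BBN963 tumours and 1051, 543, 569 and 919.6 in the 4 MB49 tumours. It was lower in UPPL1541 than in MB49 (log2 difference -3.31 ± 0.51 SE, adjusted p = 0.00028) and than in BBN963 (log2 difference -3.05 ± 0.63 SE, adjusted p = 0.0049), without overlap. Ccl8, which is grouped with the Ccr4 and Ccr8 ligands and not with the monocyte attractants, was also lower in UPPL1541. This held against MB49 (log2 difference -3.001 ± 0.631 SE, adjusted p = 0.00221) and against BBN963 (log2 difference -3.28 ± 0.77 SE, adjusted p = 0.00973). The BBN963 call was lost without BBN963 tumour 1. Ccl12, a mouse Ccr2 ligand, was highest in MB49 and stood at 13.1, 9.13, 39.7 and 31.0 in the 4 UPPL1541 tumours, 7.61 and 22.1 in the 2 BBN963 tumours and 539, 292, 285 and 385 in the 4 MB49 tumours, lower than MB49 in UPPL1541 (log2 difference -4.13 ± 0.55 SE, adjusted p = 0.000101) and in BBN963 (log2 difference -4.69 ± 0.68 SE, adjusted p = 0.000234). Ccl3, Ccl4, Ccl6 and Ccl9 passed in none of the 3 comparisons. Over the 7 macrophage and monocyte genes, all 7 were lower in UPPL1541 than in MB49 tumours and 6 were lower in BBN963 than in MB49, while UPPL1541 exceeded BBN963 in 2. Those genes summed to 5648 to 12679.6 in UPPL1541, 5926 to 7388 in BBN963 and 17390.2 to 26083 in MB49 tumours; their part in the ligand differences was not tested.

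The eosinophil attractants split by line. Ccl11 (eotaxin-1, ligand of Ccr3) stood at 38.2, 39.1, 22.3 and 13.1 in the 4 UPPL1541 tumours, 4669 and 2773 in the 2 BBN963 tumours and 108, 55.0, 43.7 and 50.1 in the 4 MB49 tumours. BBN963 tumours were higher than MB49 (log2 difference 5.88 ± 0.55 SE, adjusted p = 9.75e-06) and UPPL1541 tumours were lower than BBN963 (log2 difference -7.07 ± 0.55 SE, adjusted p = 2.00e-05). The 6 cultures had at most 6.08. The UPPL1541 against MB49 difference in Ccl11 (log2 difference -1.19 ± 0.45 SE, adjusted p = 0.047) was small and was lost without any 1 of UPPL1541 tumours 3 and 4, BBN963 tumours 1 and 2, which enter only through the shared spread, and MB49 tumours 1, 2 and 4 (adjusted p between 0.0501 and 0.12). Ccl24 (eotaxin-2), a macrophage product, stood at 4.78, 0, 14.9 and 0 in the 4 UPPL1541 tumours, 235 and 73.5 in the 2 BBN963 tumours and 817, 330.0, 203 and 189 in the 4 MB49 tumours, lower in UPPL1541 than in MB49 (log2 difference -6.69 ± 0.93 SE, adjusted p = 0.000129). Its lower level in UPPL1541 than in BBN963 (log2 difference -5.42 ± 1.13 SE, adjusted p = 0.00533) was lost without BBN963 tumour 1 (0.0567). The receptor Ccr3 was listed at 0 in all UPPL1541 and BBN963 tumours and stood at 56.2, 66.2, 28.8 and 31.5 in MB49 tumours.

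The interferon-inducible ligands of Cxcr3 were low in UPPL1541 tumours, with 1 exception. Cxcl10 stood at 88.4, 26.1, 714 and 94.1 in the 4 UPPL1541 tumours, 3383 and 1998 in the 2 BBN963 tumours and 2338, 1754, 1342 and 1376 in the 4 MB49 tumours, lower in UPPL1541 than in MB49 (log2 difference -3.87 ± 0.75 SE, adjusted p = 0.00132) and than in BBN963 (log2 difference -4.52 ± 0.92 SE, adjusted p = 0.0046), without overlap; the second missed the threshold when the 5 libraries with coarse low values were left out (adjusted p = 0.0509). Cxcl9, given above, ranged in UPPL1541 tumours between 36.5 and 5607, the top value being tumour 3, which lay inside the range of MB49. Its difference against MB49 was -4.27 ± 1.18 (SE), adjusted p = 0.0108, lost under edgeR (0.218), and that against BBN963 did not pass (adjusted p = 0.0785). Cxcl11 was at 0, 0, 9.93 and 0 in the 4 UPPL1541 tumours, 139.6 and 31.9 in the 2 BBN963 tumours and 72.8, 86.4, 90.6 and 139 in the 4 MB49 tumours, lower in UPPL1541 than in MB49 (log2 difference -5.71 ± 0.86 SE, adjusted p = 0.000226) and than in BBN963 (log2 difference -5.22 ± 1.05 SE, adjusted p = 0.0043); without BBN963 tumour 1 the second was lost (0.0511). Ccl5 stood at 31.1, 52.2, 249.6 and 23.8 in the 4 UPPL1541 tumours, 237 and 286 in the 2 BBN963 tumours and 549, 464, 359 and 228 in the 4 MB49 tumours and was lower in UPPL1541 than in MB49 (log2 difference -2.74 ± 0.63 SE, adjusted p = 0.00371). In the same comparison 8 of 10 interferon regulators and 4 of 6 T cell genes were lower, among them Irf8 (log2 difference -2.66 ± 0.31 SE, adjusted p = 3.20e-05) and Cd3d (log2 difference -4.45 ± 0.83 SE, adjusted p = 0.00099). T cell genes summed to 82.1 to 575 in UPPL1541, 473 to 754 in BBN963 and 576 to 1350.2 in MB49 tumours, and their part was not tested.

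The homing ligands Ccl21c and Cxcl13 and the stromal Cxcl12 were higher in UPPL1541 tumours than in either other line. Ccl21c, of the Ccr7 ligand family, stood at 787, 490.2, 1078 and 1647 in the 4 UPPL1541 tumours, 20.3 and 0 in the 2 BBN963 tumours and 248, 98.8, 81.0 and 83.9 in the 4 MB49 tumours, higher in UPPL1541 than in MB49 (log2 difference 2.99 ± 0.80 SE, adjusted p = 0.00944) and than in BBN963 (log2 difference 7.62 ± 0.98 SE, adjusted p = 0.000366), without overlap. Cxcl13, the B cell attractant, stood at 182, 45.6, 115 and 53.6 in the 4 UPPL1541 tumours, 0 and 0 in the 2 BBN963 tumours and 9.37, 13.5, 12.8 and 19.8 in the 4 MB49 tumours. It was higher in UPPL1541 than in MB49 (log2 difference 2.57 ± 0.60 SE, adjusted p = 0.00396) and passed against BBN963, where it was listed at 0 (adjusted p = 0.000174). In BBN963 against MB49 tumours both Ccl21c (log2 difference -4.63 ± 0.98 SE, adjusted p = 0.003) and Cxcl13 (adjusted p = 0.00147) were lower; the call for Cxcl13, listed at 0 in both BBN963 tumours, was lost with a pseudocount of 10 (adjusted p = 0.0673). Cxcl12 stood at 1467, 422, 1845 and 2523 in the 4 UPPL1541 tumours, 48.2 and 227 in the 2 BBN963 tumours and 1024, 199.8, 188 and 223 in the 4 MB49 tumours, higher in UPPL1541 than in BBN963 (log2 difference 3.62 ± 0.85 SE, adjusted p = 0.00967) and than in MB49 (log2 difference 2.10 ± 0.70 SE, adjusted p = 0.0266). The first was lost without BBN963 tumour 1 (0.116). The second, in which MB49 tumour 1 lay among the UPPL1541 tumours, was lost without any 1 of UPPL1541 tumours 1, 3 and 4 and MB49 tumours 2, 3 and 4 (adjusted p between 0.0597 and 0.0818). Fibroblast genes were also higher in UPPL1541 than in MB49, 3 of 5 of them, led by Lum (log2 difference 4.38 ± 0.53 SE, adjusted p = 4.84e-05). The 4 B cell genes summed to 1.24 to 17.9 in UPPL1541 tumours, 0 in BBN963 tumours and 33.0 to 89.5 in MB49 tumours.

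Of the mucosal and membrane-anchored ligands, Cxcl17, a mucosal myeloid attractant, stood at 114, 137, 90.6 and 106 in the 4 UPPL1541 tumours, 0 and 27.0 in the 2 BBN963 tumours and 0, 2.24, 0 and 0 in the 4 MB49 tumours and was higher in UPPL1541 than in MB49 (log2 difference 6.38 ± 0.94 SE, adjusted p = 0.000199) and than in BBN963 (log2 difference 4.40 ± 1.15 SE, adjusted p = 0.0157); the second was lost without BBN963 tumour 1 (0.154). Ccl20, with the values given above, was higher in UPPL1541 than in MB49 (log2 difference 3.79 ± 0.89 SE, adjusted p = 0.00427). Cx3cl1 stood at 1085, 816, 952 and 887 in the 4 UPPL1541 tumours, 222 and 309 in the 2 BBN963 tumours and 1550.5, 667, 979 and 517 in the 4 MB49 tumours. It was lower in BBN963 than in MB49 (log2 difference -1.70 ± 0.36 SE, adjusted p = 0.00292) and higher in UPPL1541 than in BBN963 (log2 difference 1.82 ± 0.36 SE, adjusted p = 0.00387), with no overlap in either pair. Cxcl16 did not pass in any of the 3 comparisons, with log2 differences of 0.06 ± 0.22, -0.39 ± 0.27 and 0.45 ± 0.27 (SE) for UPPL1541 minus MB49, UPPL1541 minus BBN963 and BBN963 minus MB49. Pf4 stood at 121, 160.4, 67.0 and 57.2 in the 4 UPPL1541 tumours, 0 and 116 in the 2 BBN963 tumours and 747, 561, 316 and 779 in the 4 MB49 tumours and was lower in BBN963 than in MB49 (log2 difference -5.71 ± 1.36 SE, adjusted p = 0.00598).

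Ccl1, a T helper cell attractant, stood at 0, 0, 2.48 and 0 in the 4 UPPL1541 tumours, 74.9 and 19.6 in the 2 BBN963 tumours and 12.5, 3.37, 0 and 0 in the 4 MB49 tumours and was higher in BBN963 than in both other lines. Xcl1, made by activated T and natural killer cells, stood at 1.19, 7.82, 13.7 and 11.9 in the 4 UPPL1541 tumours, 64.7 and 65.0 in the 2 BBN963 tumours and 13.5, 35.9, 15.99 and 3.50 in the 4 MB49 tumours and was lower in UPPL1541 than in BBN963. Ccl27a was lower in BBN963 than in MB49. All of these were lost in some alternatives: Ccl1 without BBN963 tumour 1 against UPPL1541 and MB49 (adjusted p = 0.115 and 0.194) and without MB49 tumour 3 or 4 against MB49 (0.0599 and 0.0585), Ccl27a without BBN963 tumour 2 (0.283) or MB49 tumour 3 or 4 (0.0562 and 0.0506), and Xcl1 without either BBN963 tumour (0.132 and 0.117), UPPL1541 tumour 1 or 2 (0.0735 and 0.0524) or MB49 tumour 3 (0.0535). Ccl17, Ccl22, Ccl25, Cxcl14 and Cxcl15 passed in no comparison of lines. With the deposited scaling 74.4% of all calls between UPPL1541 and BBN963 tumours were higher in UPPL1541, against 49.8% after quantile normalization and 59.7% after median-of-ratios scaling; 5 ligands were higher and 10 lower under both alternatives.

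**Figure D4:**
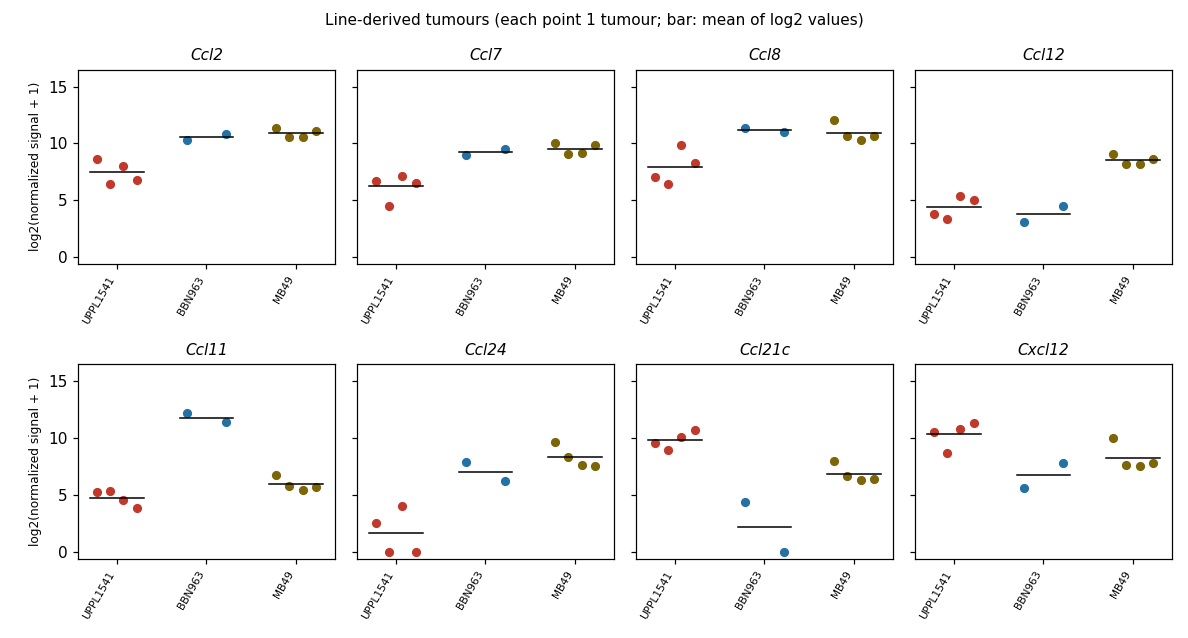
Log2 of normalized signal + 1 of 8 ligands in tumours grown from UPPL1541 (4), BBN963 (2) and MB49 (4); each point is 1 tumour and the bar is the mean of the log2 values. Ccl2, Ccl7 and Ccl8 are lowest in UPPL1541, Ccl11 is highest in BBN963 at 4669 and 2773, Ccl12 is highest in MB49, and Ccl21c is highest in UPPL1541.

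Primary tumours gave fewer calls. Of 26 ligands tested in UPPL against BBN primary tumours, 0 were higher and 4 were lower (15.4%), beside 5.71% and 12.8% over all genes. The ligand share of lower calls was thus near that of all genes. The 4 were Cxcl9, Cxcl10, Ccl5 and Cx3cl1, which attract T cells and natural killer cells, or monocytes in the case of Cx3cl1. The median log2 difference was -1.20 for the 26 ligands and -0.19 for all genes; 12 ligands were too low to test. Cxcl9 had a lowest, median and highest value of 0, 0 and 9.57 in the 9 UPPL tumours and of 0, 53.9 and 476 in the 11 BBN tumours. It was listed at 0 in 5 UPPL tumours and in 1 BBN tumour. No UPPL tumour reached 10, so Cxcl9 passed the filter of 10 in at least 9 libraries through BBN tumours alone. Its log2 difference was -4.34 ± 0.91 (SE), adjusted p = 0.00285. Cxcl10 had a lowest, median and highest value of 0, 13.5 and 129 in the 9 UPPL tumours and of 12.4, 161 and 318 in the 11 BBN tumours, a difference of -2.99 ± 0.84 (SE), adjusted p = 0.0172, which edgeR did not call (0.0855). Ccl5 had a lowest, median and highest value of 0, 5.27 and 12.0 in the 9 UPPL tumours and of 1.10, 16.9 and 76.9 in the 11 BBN tumours, a difference of -2.41 ± 0.71 (SE), adjusted p = 0.0228. All Ccl5 values were under 100, and its call was lost under quantile normalization (0.214), under edgeR (0.0755) and without the 5 libraries with coarse low values (0.103). Cx3cl1 had a lowest, median and highest value of 183, 270.3 and 595 in the 9 UPPL tumours and of 250.5, 734 and 1868 in the 11 BBN tumours, a difference of -1.36 ± 0.35 (SE), adjusted p = 0.00961. The groups overlapped for all 4 genes, and for all 38, among them the 12 too low to test. Overlap was not counted over all genes.

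Pan-leukocyte and macrophage transcripts were lower in UPPL primary tumours too. The 3 pan-leukocyte genes, all of which fell, summed to 75.9 to 903 in UPPL and 457 to 2673 in BBN tumours, and 5 of 6 macrophage and monocyte genes were lower. Of 4 neutrophil genes 1, Cxcr2, was higher and 0 were lower. The other 3 did not pass, and the median log2 difference of the 4 was -1.29, opposite in sign to Cxcr2. Of 9 interferon regulators 4 were lower, led by Irf1 (log2 difference -1.25 ± 0.19 SE, adjusted p = 0.000295) and Irf9 (log2 difference -1.92 ± 0.41 SE, adjusted p = 0.00323). Their part in the 4 ligands was not tested. The split over all genes depended on scaling, with 30.9% of calls higher in UPPL as deposited, 50.1% after quantile normalization and 48.6% after median-of-ratios scaling, while no ligand was higher under any of these.

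The ligands made in abundance by cultured UPPL1541 and BBN963 cells were also present in primary tumours, and did not pass between the models. Ppbp had a lowest, median and highest value of 123, 8742 and 18524 in the 9 UPPL tumours and of 397, 4198 and 18432 in the 11 BBN tumours (difference 0.63 ± 0.82, adjusted p = 0.622). Cxcl5 had a lowest, median and highest value of 0, 462 and 1548 in the 9 UPPL tumours and of 56.7, 402 and 6085 in the 11 BBN tumours (difference -1.50 ± 1.12, adjusted p = 0.36). Both varied widely within each model. Primary tumour BBN963, which shares its name with the line, had the highest Cxcl5, Cxcl3 and Cxcl2 of the 20 primary tumours, at 6085, 7275 and 1453, and primary tumour UPPL1541 had the highest Ppbp, at 18524. Cxcl16 had a lowest, median and highest value of 560.2, 1416 and 1957 in the 9 UPPL tumours and of 654, 1696 and 3175 in the 11 BBN tumours. Cxcl12 was highest in BBN975 at 2798 and BBN969 at 1429. Of the other ligands tested, 22 in all with these, adjusted p was 0.071 or more.

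**Figure D5:**
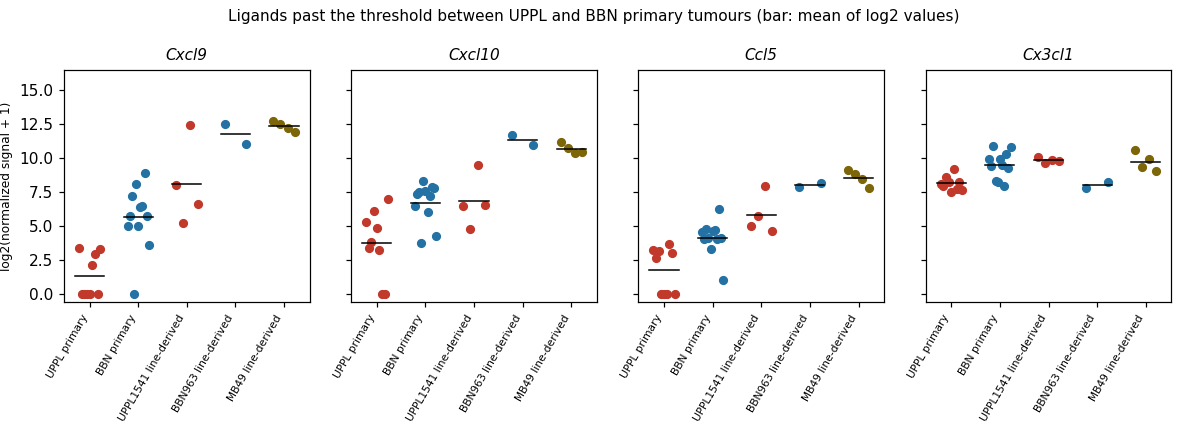
Log2 of normalized signal + 1 of the 4 ligands past the threshold between UPPL (9) and BBN (11) primary tumours, with the line-derived tumours beside them; each point is 1 tumour and the bar is the mean of the log2 values. Cxcl9 reaches at most 9.57 in UPPL primary tumours and 476 in BBN primary tumours, and 5607 in 1 UPPL1541 line-derived tumour.

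Every ligand that passed between line-derived and primary tumours of the same model was higher in the line-derived ones. In UPPL1541 line-derived against UPPL primary tumours, 18 of 35 ligands were higher and 0 lower, beside 20.5% and 5.98% over all genes. In BBN963 line-derived against BBN primary tumours, 11 of 35 were higher and 0 lower, beside 2.09% and 5.67% over all genes. The median log2 difference, line-derived minus primary, was 2.76 for the ligands and 0.37 for all genes in UPPL, and 1.23 for the ligands and -0.17 for all genes in BBN.

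For UPPL, myeloid CC ligands stood out. Ccl9 stood at 829.2, 1606, 407 and 499 in the line-derived tumours, against a lowest, median and highest of 0, 25.0 and 57.2 in the primary tumours. Ccl6 stood at 1059.7, 3203, 523 and 584, against 0, 66.9 and 220.1. Neither gene's groups overlapped, and the differences passed for Ccl9 (log2 difference 5.20 ± 0.87 SE, adjusted p = 9.09e-05) and for Ccl6 (log2 difference 4.35 ± 0.88 SE, adjusted p = 0.000604). Ccl21c stood at 787, 490.2, 1078 and 1647, against 0, 1.74 and 45.1, a difference of 7.69 ± 1.47 (SE), adjusted p = 0.000359. Cxcl9 (log2 difference 6.77 ± 1.26 SE, adjusted p = 0.000294), Ccl5 (log2 difference 4.09 ± 0.88 SE, adjusted p = 0.00118), Ccl4 (log2 difference 5.09 ± 0.91 SE, adjusted p = 0.000192) and Cx3cl1 (log2 difference 1.71 ± 0.43 SE, adjusted p = 0.0039) were also higher. Cxcl17 passed against primary tumours that were all listed at 0. The others higher were Ccl3, Ccl7, Ccl8, Ccl12, Cxcl2, Cxcl5, Cxcl10, Cxcl12, Cxcl13 and Xcl1. Ppbp, with 642, 984, 1617 and 915 in line-derived and 123, 8742 and 18524 in primary tumours, did not pass with limma (difference -2.25 ± 1.01, adjusted p = 0.0996) and was lower with edgeR (adjusted p = 0.0224). Pan-leukocyte genes also rose, 3 of 3, as did 6 of 7 macrophage and monocyte genes and all 5 fibroblast genes, and their part was not tested. Of the 18 calls, 9 held under every alternative; Cxcl13 was lost under edgeR (adjusted p = 0.123), Cxcl12 without UPPL1541 tumour 1, 3 or 4 (at most 0.0944), Cxcl5 without any 1 of the 4 UPPL1541 tumours (at most 0.103) or primary tumours UPPL1598, UPPL1612 and UPPL1694 (at most 0.0691), Ccl3 and Cxcl2 were lost without UPPL1541 tumour 2 (adjusted p = 0.0809 and 0.074), and Ccl8, Ccl12, Cxcl10 and Xcl1 without tumour 3 (0.0663, 0.0522, 0.199 and 0.0561). Xcl1 was also lost without tumour 4 (0.0509), and Cxcl10 without tumour 1 or 4 or any 1 of 4 primary tumours (UPPL1544, UPPL1598, UPPL1612 and UPPL1694; at most 0.0727). Over all genes 77.4% of calls were higher in line-derived tumours as deposited, against 48.8% after quantile normalization and 64.7% after median-of-ratios scaling; after quantile normalization 14 ligands were higher and 0 lower.

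For BBN, the values rest on 2 line-derived tumours. Ccl11 stood at 4669 and 2773 there, against a lowest, median and highest of 0, 23.6 and 187 in the 11 primary tumours, a difference of 7.35 ± 1.47 (SE), adjusted p = 0.00222. Cxcl9 stood at 5716 and 2087, against 0, 53.9 and 476, and Cxcl10 at 3383 and 1998, against 12.4, 161 and 318; both Cxcl9 (log2 difference 6.10 ± 1.62 SE, adjusted p = 0.0196) and Cxcl10 (log2 difference 4.60 ± 1.40 SE, adjusted p = 0.0424) passed. Ccl2, Ccl5, Ccl7, Ccl8, Ccl24, Ccl1, Cxcl11 and Xcl1 were the others. Both line-derived tumours lay above all primary tumours in 11 ligands. These were Ccl1, Ccl2, Ccl5, Ccl7, Ccl8, Ccl11, Cxcl9, Cxcl10, Cxcl11 and Xcl1, and also Ccl3, which did not pass. The share of all genes that do so was not counted. The leukocyte lists were uneven. Of 4 natural killer and cytotoxic genes 4 were higher in the line-derived tumours, led by Nkg7 (log2 difference 5.43 ± 1.04 SE, adjusted p = 0.00153), as were 3 of 6 T cell genes, led by Cd3d (log2 difference 5.67 ± 1.25 SE, adjusted p = 0.00483), and 3 of 10 interferon regulators, led by Ifng (log2 difference 4.71 ± 0.73 SE, adjusted p = 0.000169). Of 3 pan-leukocyte genes and of 7 macrophage and monocyte genes 0 passed in either direction. The part of these cells was not tested. Without BBN963 tumour 1, whose low values are coarse, 0 ligands passed, with the single tumour left assumed to vary like the other groups; without tumour 2, 3 ligands were higher and 1 lower. Without the 5 libraries with coarse low values, 0 ligands passed, and edgeR called 6. Of all calls 26.9% were higher in line-derived tumours as deposited and 38.6% after median-of-ratios scaling, with 11 ligands higher in both.

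Whether the UPPL minus BBN difference itself differed between line-derived and primary tumours was tested as an interaction. Of 35 ligands, 4 had a larger UPPL minus BBN difference in line-derived tumours (Ccl21c, Cx3cl1, Cxcl13 and Cxcl17) and 2 a smaller (Ccl1 and Cxcl11), beside 8.16% and 1.06% over all genes. Cx3cl1 turned round: its level was below that of BBN in UPPL primary tumours and higher in UPPL1541 than in BBN963 line-derived tumours, an interaction of 3.19 ± 0.69 (SE), adjusted p = 0.00568, which without BBN963 tumour 1 was lost (0.074). Ccl21c had an interaction of 10.37 ± 2.38 (SE), adjusted p = 0.00839, lost under edgeR (0.0965) and without BBN963 tumour 2 (0.0969). Cxcl17 and Cxcl11 were lost without BBN963 tumour 1 (adjusted p = 0.413 and 0.324) and under edgeR (0.161 and 0.711), Cxcl17 without any 1 UPPL1541 tumour (at most 0.0703), Cxcl11 without UPPL1541 tumour 1, 2 or 4 (at most 0.0846), Cxcl13 without any 1 line-derived tumour (at most 0.202) and without some single primary tumours, as was Cxcl17 (at most 0.0598), and Ccl1 under edgeR (0.814), so none of the 6 calls held under every alternative. Quantile normalization gave 2 ligands with a larger and 5 with a smaller difference; of all calls 53.4% were then larger, against 88.5% as deposited.

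The receptors of these ligands were followed as 23 genes found of a list of 29 receptor and scavenger symbols that includes older names. Cxcr7, an atypical receptor that takes up Cxcl12, stood at 277 in the UPPL1541 culture, 998 in the BBN963 culture and 1212 in the MB49 culture. It was lower in UPPL1541 than in MB49 tumours (log2 difference -3.35 ± 0.20 SE, adjusted p = 1.67e-07) and in BBN963 than in MB49 tumours (log2 difference -3.04 ± 0.24 SE, adjusted p = 2.75e-06). Against the cultures, 11 of 19 receptors tested rose in line-derived tumours and 0 fell; Cxcr4 (5.38e-09) and Ccr1 (7.60e-09) had the smallest adjusted p, and Cxcr4 and Ccr1 were listed at 0 in all 3 cultures. Cxcr2, the receptor of Cxcl5 and Ppbp on neutrophils, stood at 566, 1179, 464 and 531 in the 4 UPPL1541 tumours, 112 and 89.5 in the 2 BBN963 tumours and 242, 334, 303 and 567.6 in the 4 MB49 tumours. It was higher in UPPL1541 than in BBN963 tumours (log2 difference 2.66 ± 0.41 SE, adjusted p = 0.00101). In UPPL against BBN primary tumours 1 receptor of 9 was higher and 2 lower: Cxcr2 was higher (log2 difference 1.95 ± 0.51 SE, adjusted p = 0.0109), Cxcr7 lower (log2 difference -1.13 ± 0.33 SE, adjusted p = 0.0225) and Ccrl2 lower (log2 difference -2.06 ± 0.72 SE, adjusted p = 0.0496). In UPPL1541 line-derived against UPPL primary tumours 11 of 21 receptors were higher and 0 lower, and in BBN963 line-derived against BBN primary tumours 2 of 21 were higher and 0 lower.

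NF-kB pathway genes, whose consensus is in the Cxcl1, Cxcl2 and Cxcl3 promoters above, were tested as 16 genes. In UPPL1541 against MB49 tumours 1 was higher and 8 lower, and in BBN963 against MB49 tumours 0 were higher and 5 lower, and Nfkb2 was lower in both, in UPPL1541 (log2 difference -2.80 ± 0.15 SE, adjusted p = 7.13e-08) and in BBN963 (log2 difference -3.05 ± 0.18 SE, adjusted p = 2.96e-07). In UPPL1541 against BBN963 tumours 3 were higher and 1 lower, and Nfkbie was higher (log2 difference 2.38 ± 0.27 SE, adjusted p = 0.000165). Between line-derived tumours and cultures 3 of 16 rose and 1 fell: Il1b, listed at 0 in the UPPL1541 and MB49 cultures, rose, and Tnf was lower in tumours (log2 difference -2.25 ± 0.56 SE, adjusted p = 0.00906). Tnf stood at 172, 176, 62.1 and 33.3 in the 4 UPPL1541 tumours, 41.9 and 38.0 in the 2 BBN963 tumours and 87.4, 52.8, 52.2 and 171 in the 4 MB49 tumours, against 377 in the UPPL1541 culture, 353 in the BBN963 culture and 265 in the MB49 culture. In UPPL against BBN primary tumours Il1a was higher (log2 difference 2.55 ± 0.58 SE, adjusted p = 0.00457) and Nfkbia was lower (log2 difference -0.70 ± 0.21 SE, adjusted p = 0.022), among 15 tested.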

How the data were processed

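RNA-seq of 36 mouse libraries was read from 1 deposited table of normalized signal per gene. Per the labels' protocols, RNA came from RNeasy kits and was sequenced from TruSeq Stranded mRNA libraries. The submitters' processing notes name RSEM, SAMtools, Picard 1.64 and the mm9 build; the deposited signal values are scaled so that the upper quartile of non-zero genes is near 1000. How multi-mapping reads were split is not given in the sources used here. Low values fell on steps: dividing by the step gave whole reads, within 0.02, for 92.0 to 96.3% of values, which gives the recovered depth. The number of reads and of tumours limits the precision, most of all in BBN963 line-derived tumours.

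Groups followed the labels. From log2(signal + 1), limma 3.58.1 in R 4.3.3, with a variance trend, was fitted to genes at 10 or more in at least 9 libraries (primary tumours), 3 libraries (tumours and cultures) or 2 libraries (line-derived tumours alone, and the 4 groups of UPPL and BBN tumours), with Benjamini-Hochberg adjustment over all genes tested and a threshold of 0.05. Alternatives were a pseudocount of 10, no filter, a filter of 50, quantile and median-of-ratios scaling, no trend, a replicate block, leaving out each library, and leaving out the primary tumours named like the lines. A quasi-likelihood test in edgeR 4.0.16 on the recovered reads (rounded), and a fit without the 5 libraries with coarse low values, were chosen after seeing the data. The analysis code was tested on simulated data. Values are printed for ligands past the threshold with a group mean of 100 or more, or at 100 or more in a culture, and for low ligands needed to complete a role; of each gene list up to 3 genes with the smallest adjusted p are named. Flt3, Csf1r and Cd68 were named after their values were seen. Some genes of these lists, though counted, are not reported here by name. Members and gene lists were chosen with earlier results of these data known. Promoters came from RefSeq and transcript lengths from GENCODE.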

Additional observations from a re-analysis of the deposited data

Results flagged for a closer look

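Within groups of 4 to 9 tumours, 64 pairs of a ligand that reached 100 and a group were examined for a library far from the others. In 16 pairs there was one, in each case the highest. The cut-offs give about 1 in 20 for independent, normally distributed values. The signals were not log-transformed and several pairs share a tumour, so the rate by chance is not known here. In MB49 line-derived tumours, tumour 1 stood apart with Ccl21c at 248 (nearest other 98.8), Ccl8 at 4162 (nearest 1625), Cxcl12 at 1024 (nearest 223) and Cxcl5 at 189 (nearest 34.97). The sum of 5 fibroblast genes was also highest of its group in tumour 1, at 75697 beside a group median of 17354, and their part was not tested. Tumour 4 stood apart with Ccl3 at 972.03 (nearest 296) and Cxcl2 at 3733 (nearest 789.8). In UPPL1541 line-derived tumours, tumour 2 had Ccl3 at 817 (nearest 159) and Cxcl2 at 2462 (nearest 579), and tumour 3 had Ccl5 at 249.6 (nearest 52.2), Cxcl10 at 714 (nearest 94.1) and Cxcl9 at 5607 (nearest 253). Il1b was also highest of its group in UPPL1541 tumour 2, at 6129, and in MB49 tumour 4, at 6381, and the T cell sum was highest of its group in UPPL1541 tumour 3, at 575; their part was not tested. In UPPL primary tumours, UPPL1598 had Cx3cl1 at 595 (nearest 381), UPPL1595 had Cxcl1 at 276 (nearest 134), UPPL1695 had Cxcl14 at 476 (nearest 207) and Cxcl3 at 1111 (nearest 265), and UPPL1694 had Cxcl15 at 2155 (nearest 53.8).

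For 6 ligands the UPPL minus BBN difference in log2(signal + 1) was not the same in line-derived as in primary tumours, by the interaction test with limma. The interaction was 10.37 for Ccl21c, 6.44 for Cxcl17, 6.11 for Cxcl13 and 3.19 for Cx3cl1, and -3.93 for Ccl1 and -4.16 for Cxcl11. Ccl1, Cxcl11 and Cxcl17 were listed at 0 in all UPPL primary tumours and Cxcl13 in both BBN963 line-derived tumours, so the sizes of these 4 depend on the pseudocount. The size for Ccl21c depends on it as well. Ccl21c stood at 20.3 and 0 in the 2 BBN963 line-derived tumours and was listed at 0 in some UPPL primary tumours. None of the 6 held under every alternative.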

How the results depend on the processing

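No ligand call changed direction under any alternative. Of 106 ligand calls in 8 comparisons, 49 held under every alternative, and 3 more (Cxcl9 in primary tumours, Ccl20 in UPPL1541 against MB49 and Xcl1 in tumours against cultures) in all but the filter of 50, where they were not tested. The count of ligands called between UPPL and BBN primary tumours was 4, and 2 with a filter of 50 or with edgeR. Without the 5 libraries with coarse low values it was 8 for UPPL1541 against BBN963 tumours (14 as reported), 0 for BBN963 line-derived against BBN primary tumours (11 as reported) and 1 for the interaction (6 as reported); edgeR gave 6 and 2 for the last 2 of these. Leaving out 1 library at a time gave 8 to 16 for UPPL1541 against BBN963, 0 to 11 for BBN963 line-derived against BBN primary, 1 to 7 for the interaction, 17 to 22 for UPPL1541 against MB49, 9 to 15 for BBN963 against MB49, 19 to 22 for tumours against cultures, 12 to 20 for UPPL1541 line-derived against UPPL primary and 4 to 5 for the primary tumours. The lowest of the first 3 ranges came without BBN963 tumour 1; without tumour 2 the second was 4, and without UPPL1541 tumour 1, 2 or 4 the third was 3. Where 1 BBN963 tumour remained, it was assumed to vary like the other groups. The causes were not tested. The number of ligands made in cultures was 23, 19 and 17 at thresholds of 5, 50 and 100, and 19 when 2 cultures were required. Over all genes edgeR called 2000.0 genes between primary tumours against 2371 with limma, 6997 against 7285 for UPPL1541 against MB49, 729 against 1182 for BBN963 line-derived against primary and 412 against 1404 for the interaction, the last 2 moving by over 1.5 times. Quantile normalization moved the median log2 difference of all genes to -0.03 for primary tumours (-0.19 as deposited), -0.14 for UPPL1541 minus MB49 (0.05), -0.03 for UPPL1541 minus BBN963 (0.32), -0.06 for BBN963 minus MB49 (-0.24), -0.16 for tumours minus cultures (0.13), -0.08 for UPPL1541 line-derived minus primary (0.37) and -0.05 for BBN963 (-0.17). With tumour number as a replicate block, 18, 13 and 12 ligands were called for UPPL1541 against MB49, UPPL1541 against BBN963 and BBN963 against MB49. Deviations of same-numbered tumours correlated between -0.093 and 0.066, and those of differently numbered tumours between -0.071 and 0.093. Whether the numbers pair the tumours was not tested. Depth limits ligands under 10, where 1 library with coarse values can decide a call.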
